A study of Mus musculus with 17 samples.

Results

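The immunoglobulin variable segments of the mouse colon were described on 17 one-colour arrays, each hybridized with RNA of whole colon. Members were the probes whose gene name began with Ighv, Igkv or Iglv, or whose description named an immunoglobulin and then a variable segment. This rule found 218 of 56605 probes, under 199 gene names. Of these, 206 were well above the local background on at least 4 arrays, which was the limit for a probe to be tested, among 38703 such probes in all. Both probes of Bivm met the rule through their description (a motif resembling an immunoglobulin) although Bivm is no antibody segment. The remaining 204 probes are the variable segments described here. They comprised 101 heavy, 100 kappa and 3 lambda probes, and 153 of the 204 were well above background on all 17 arrays.

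The study asked which genes the pregnane X receptor (PXR, encoded by Nr1i2) controls in liver and intestine, using pregnenolone 16α-carbonitrile (PCN), a ligand of the rodent receptor. All mice were males on the C57BL/6J background. WT mice were bought at 6 weeks of age, whereas Pxr-/- mice, which lack the receptor, came from a colony kept for 10 years in the study's own facility. Mice of both genotypes were acclimatized for 2 weeks. Treated mice received PCN in corn oil at 100 mg/kg intraperitoneally each day for 4 days and control mice (CONT) received corn oil alone. All mice, controls included, were injected and were killed fed at zeitgeber time 6, which was 6 h after the last injection. There were 4 arrays each of WT CONT, WT PCN and Pxr-/- PCN mice, and 5 of Pxr-/- CONT mice. Genotype and colony of origin cannot be told apart in this design. The labels give each array as a separate sample of its group and say no more of the animals, so p-values measure the spread between these samples.

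An antibody is built from heavy chains and from light chains of the kappa or lambda type, and each chain begins with a variable domain. That domain is encoded by 1 variable segment, which a developing B cell joins at random to shorter segments, so that each B cell clone carries its own choice. In the gut, B cells mature in lymphoid follicles, and plasma cells in the mucosa secrete mainly immunoglobulin A, whose transcripts make up a large part of the mucosal antibody message.

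The array probes are 60 bases long and most lie within 1 segment of the germline, on chromosome 12 (heavy), 6 (kappa) or 16 (lambda) of the mm9 build. They hybridize to any transcript that carries the segment, whatever it was joined to. RefSeq (GRCm38.p6) lists 190 of the 204 probes under a functional variable segment and 10 under a segment pseudogene. The probes below are those whose values carry the results. In the first 4, which form 2 pairs of like probes, capitals mark the bases in which the partners differ. Igkv5-43 (chr6:69773526-69773585, minus strand) and Igkv5-45 (chr6:69725919-69725978, minus strand) are alike in 55 of 60 bases when one is shifted by 2 bases. Ighv1-15 (chr12:115895649-115895708, minus strand) and Ighv1-23 (chr12:116002746-116002805, minus strand) are alike in 58 of 60.
Igkv5-43: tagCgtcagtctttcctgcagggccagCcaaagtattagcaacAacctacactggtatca
Igkv5-45: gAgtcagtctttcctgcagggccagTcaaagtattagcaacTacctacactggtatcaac
Ighv1-15: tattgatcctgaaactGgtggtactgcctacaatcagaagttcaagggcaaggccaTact
Ighv1-23: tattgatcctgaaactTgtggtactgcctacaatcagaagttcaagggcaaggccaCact

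Iglv1, the lambda segment with the lowest p-values of all members, is read by 2 overlapping probes, shown with their 54 shared bases in capitals. The first lies within the segment (chr16:19085111-19085170, minus strand). The second (chr16:19063348-19085165, minus strand) covers 21818 bases of the genome with its 60 bases, so its last letters lie in a distant block and not in the segment.
Iglv1 first probe: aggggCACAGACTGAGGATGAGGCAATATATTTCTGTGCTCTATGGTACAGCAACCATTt
Iglv1 second probe: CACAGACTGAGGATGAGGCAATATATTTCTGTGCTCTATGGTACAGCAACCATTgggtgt

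The other sequences belong to segments that were far above the rest in 1 mouse or 1 pair of arrays. The exception is Igkv8-18, which was high on both Pxr-/- CONT replicate 3 and Pxr-/- PCN replicate 3. Capitals mark TATTACTGT, codons for the tyrosine, tyrosine and cysteine near the end of many variable domains, where present. On either strand these letters occur in 25 of the 204 segment probes (12.3%) and in 0.101% of the other 38499 probes tested. The probes are Iglv3 (chr16:19241304-19241363, minus strand), Ighv7-3 (chr12:115391424-115391483, minus strand), Ighv7-2 (chr12:115150236-115150295, minus strand), Ighv9-4 (chr12:115538305-115538364, minus strand), Igkv14-126 (chr6:67846563-67846622, plus strand), Igkv8-18 (chr6:70306191-70306250, plus strand) and Igkv7-33 (chr6:70008779-70008838, minus strand).
Iglv3: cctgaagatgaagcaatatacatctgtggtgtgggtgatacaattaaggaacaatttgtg
Ighv7-3: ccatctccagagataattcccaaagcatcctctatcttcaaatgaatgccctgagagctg
Ighv7-2: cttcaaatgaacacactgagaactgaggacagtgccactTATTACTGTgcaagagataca
Ighv9-4: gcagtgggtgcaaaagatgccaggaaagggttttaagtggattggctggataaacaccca
Igkv14-126: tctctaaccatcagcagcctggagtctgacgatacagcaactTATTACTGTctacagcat
Igkv8-18: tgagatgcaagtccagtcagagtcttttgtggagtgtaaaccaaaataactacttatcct
Igkv7-33: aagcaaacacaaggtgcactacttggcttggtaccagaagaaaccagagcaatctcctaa

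Among the arrays, 2 pairs were near-identical although their labels differ. They are WT PCN replicate 4 with Pxr-/- PCN replicate 2, and WT PCN replicate 3 with Pxr-/- CONT replicate 2, each on different slides. Which label of each pair is right is not known, and the labels were kept. Values without these arrays are given for the median differences, for the number of segments called and for Iglv1 under PCN in WT mice. The group means, the p-values of single segments, and the counts by unadjusted p or by overlap of groups include these arrays. In the p-values each of these arrays counts as a separate sample. Nr1i2 was at 11.10 and 11.15 log2 units on WT PCN replicates 3 and 4, against 11.85 to 12.44 on the other 6 WT arrays and 10.39 to 11.93 on the Pxr-/- arrays. The colons also differed in what else they held. Pancreas markers averaged 17.25 on WT CONT replicate 4, and 14.96 and 14.89 on the pair that holds WT PCN replicate 3, against a lowest array of 6.74. They averaged 11.01 on WT PCN replicate 1. Liver markers averaged 10.89 on WT CONT replicate 5, where 79 of the segments were at their highest, 8.04 and 7.93 on WT PCN replicates 1 and 2, and 5.22 to 5.74 on the other arrays. Their part in the segment values was not tested. Colon epithelium markers averaged 15.18 to 15.73 on all arrays, as the tissue label says. On each array, 60.95% to 69.65% of probes were well above background and no spot was saturated. The number of arrays limits the precision.

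Variable segments were among the most variable transcripts of the colon. On the log2 scale, the SD over the 17 arrays had a median of 0.82 for heavy, 0.93 for kappa and 1.04 for lambda segments, against 0.18 for the other 38499 probes tested. The range over the arrays exceeded 2 log2 units (4-fold) for 187 of 204 segments (91.7%) and for 4.51% of the other probes. For heavy and kappa segments most of this spread lay between mice of the same group. The median SD about the group means was 0.73 for heavy and 0.83 for kappa segments. For the 3 lambda probes, 2 of which read Iglv1, it was 0.58. With 1 probe each for Iglv1 and Iglv3 the lambda value was 0.96. Over all segments the median SD about the group means was 0.80, against 0.89 about the mean of the 17 arrays and 0.90 with each near-identical pair counted once. The values about the group means include the near-identical arrays. Part of the spread was shared by all segments of an array: with each array's mean over the locus taken out, the median SD was 0.63 for heavy and 0.75 for kappa segments. The 10 segments that RefSeq lists as pseudogenes varied like the others, with a median SD of 0.97 against 0.91 for the functional ones.

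**Figure D1:**
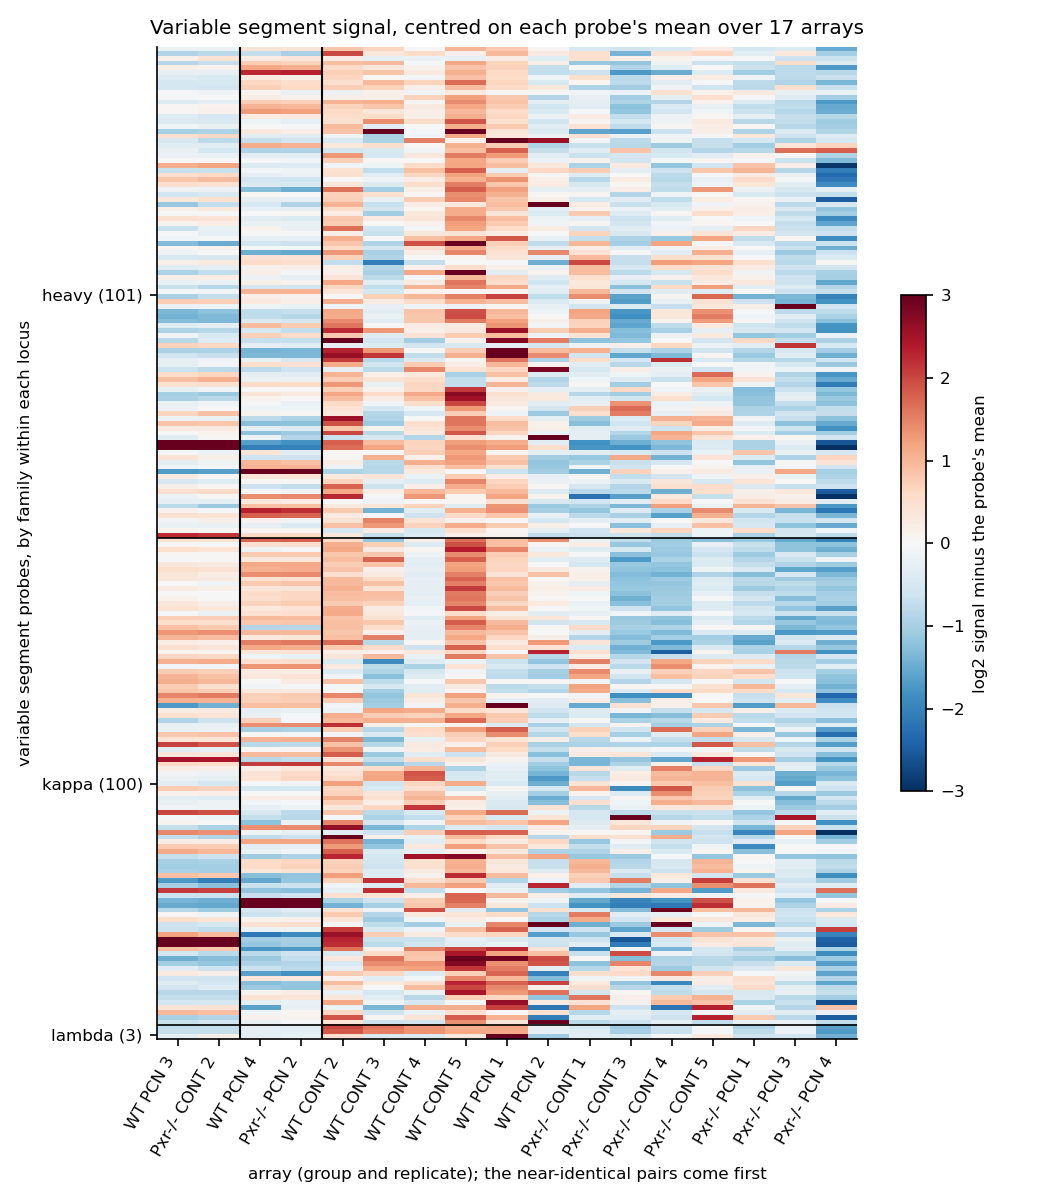
Log2 signal of the 204 variable segment probes (rows, by family within the heavy, kappa and lambda loci) on the 17 arrays (columns, with the near-identical pairs first), with each probe centred on its mean over the arrays; red is above the mean and blue below, cut at 3 log2 units. The columns of each near-identical pair match, while other columns differ in many single rows.

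The largest spread in the heavy locus was that of Ighv7-3 (SD 1.77 with each pair counted once), followed by Ighv2-9-1 (1.68), Ighv7-2 (1.605) and Ighv2-6 (1.51). In the kappa locus it was that of Igkv5-43 (1.605), Igkv9-123 (1.603), Igkv5-45 (1.54) and Igkv14-126 (1.498). The smallest spreads were those of Ighv1-24 (0.21), a dim probe above background on only 4 arrays, and Igkv18-36 (0.50). RefSeq lists Ighv7-3 and Igkv14-126 as pseudogenes. Each of the other segments named here encodes the variable domain of a heavy or a kappa chain, and they differ in the framework and in the antigen-binding loops they encode. Just inside the limit for testing were 7 probes above background on 4 arrays, among them Ighv1-24 and Ighv5-2, whose highest values were 5.83 and 8.88. Just outside was Igkv5-37, above background on 3 arrays, with a highest value of 5.97.

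The near-identical pairs carried the same segment profile. Over the 204 segments, the log2 differences within the first pair named above had an SD of 0.19, and 199 segments were within 0.5. Within the second pair the SD was 0.14, and all 204 segments were within 0.5. For the other 134 pairs of arrays the SD ran from 0.79 to 1.44, with 16 to 113 segments within 0.5. For arrays of the same group the SDs ran from 0.91 to 1.44 over 28 pairs (median 1.12), against 0.79 to 1.42 over the 106 other pairs of different groups (median 1.19). Over the other probes tested, the near-identical pairs were at 0.17 and 0.20 and the other pairs at 0.29 to 0.61.

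**Figure D2:**
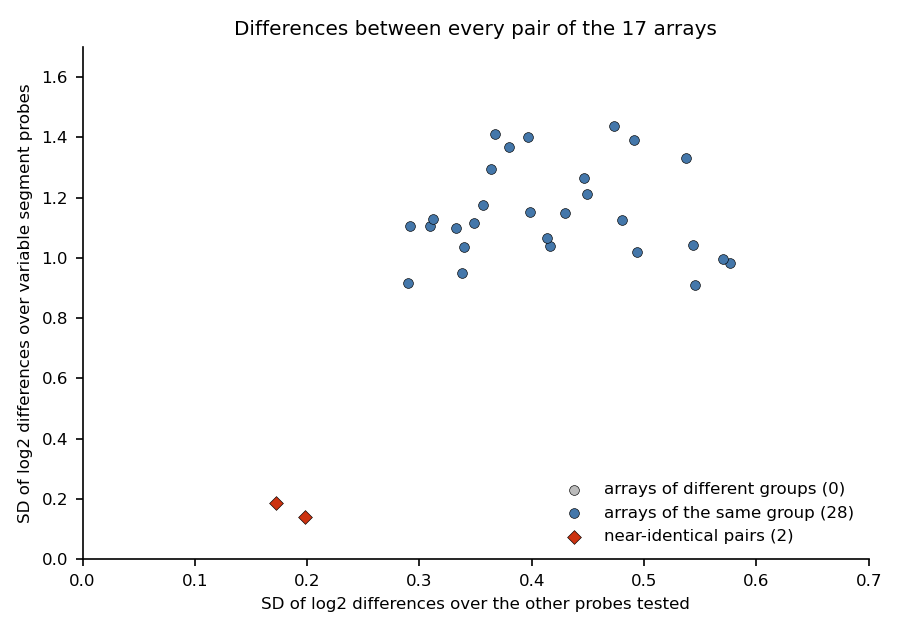
SD of the log2 differences between 2 arrays over the other 38499 probes tested (x axis) and over the 204 variable segment probes (y axis). Points are drawn for the near-identical pairs and for the 28 pairs of arrays that share a group. The 106 other pairs of different groups are not drawn. The near-identical pairs (diamonds) lie at 0.14 and 0.19 on the y axis, and the pairs that share a group at 0.91 or higher.

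On the pair with WT PCN replicate 3, 5 segments stood at least 1 log2 unit above all other arrays, 3 heavy and 2 kappa. Igkv5-43 was at 14.43 and 14.47 on this pair. On the WT CONT arrays it was at 12.79, 9.83, 9.85 and 10.22, on the other WT PCN arrays at 10.102, 9.93 and 9.46, on the other Pxr-/- CONT arrays at 9.89, 7.97, 10.00 and 10.95, and on the Pxr-/- PCN arrays at 10.82, 9.51, 10.27 and 8.07. Its highest array was 91.0 times its lowest. WT CONT replicate 2 came next and all other arrays were at 10.95 or below. Igkv5-45 was likewise at 14.00 and 13.92 on the pair and at 12.31 on WT CONT replicate 2. With probes so alike, transcripts of one segment may be read by the probe of the other.

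Among heavy segments, Ighv7-3 was at 12.56 and 12.66 on the same pair. It was at 10.71, 10.21, 9.68 and 10.41 in WT CONT, at 10.29, 9.53 and 6.98 on the other WT PCN arrays, at 7.29, 7.24, 7.69 and 8.63 on the other Pxr-/- CONT arrays, and at 8.08, 6.99, 8.62 and 5.93 in Pxr-/- PCN, a range of 106-fold. Outside the 2 near-identical pairs, all 6 WT arrays were at 9.53 or above and all 7 Pxr-/- arrays at 8.63 or below. Ighv7-2, a segment of the same small family, was at 11.01 and 10.998 on the pair, at 8.34 to 9.46 in WT CONT and at 5.85 to 7.23 on the other Pxr-/- CONT arrays. The same pair was low for Ighv5-9 (7.91 and 8.01, against 9.10 to 11.28 in WT CONT) and for Igkv12-89 (5.34 and 5.0015, against 7.56 to 9.25 in WT CONT).

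The pair with WT PCN replicate 4 was set apart by other segments. Ighv9-4 was at 10.71 and 10.71 on it. In WT CONT it was at 6.32, 6.39, 7.53 and 7.20, on the other WT PCN arrays at 6.58, 6.21 and 5.54, in Pxr-/- CONT at 5.80, 5.60, 7.92, 7.38 and 7.52, and on the other Pxr-/- PCN arrays at 7.02, 8.39 and 6.24. No other array came within 2 log2 units of the pair. Igkv14-126 was at 10.73 and 10.75 on the pair. It was at 6.61, 6.93, 8.29 and 9.29 in WT CONT, at 7.66, 7.42 and 6.16 on the other WT PCN arrays, at 6.01, 6.08, 5.58, 5.75 and 9.47 in Pxr-/- CONT, and at 7.68, 6.40 and 7.57 on the other Pxr-/- PCN arrays. Pxr-/- CONT replicate 5 and WT CONT replicate 5 were thus the next highest. The second probe of Igkv14-126, which shares 40 of 60 bases with the first, followed it with r = 0.988 over the 15 profiles that remain when each near-identical pair is averaged. Ighv1-19 (11.26 and 11.32) and Igkv6-32 (11.87 and 11.89) were also at their highest on this pair, while Igkv10-94 (7.88 and 7.70) and Igkv5-39 (6.53 and 6.76) were near the bottom of their ranges.

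Segments that stood far out in 1 mouse were common. Counting each near-identical pair as 1, 33 of the 204 segments (16.2%) were at least 1 log2 unit above every other array in a single array or pair, against 1.76% of the other 38499 probes. They comprised 18 heavy, 14 kappa and 1 lambda probes. The 6 WT arrays outside the pairs held 21 of them, the 7 Pxr-/- arrays outside the pairs 3, and the pairs 9. The division differed on another scale: with each array's mean over the segments taken out first, which was chosen after seeing the data, 32 segments stood out, 10 in the WT arrays, 12 in the Pxr-/- arrays and 10 in the pairs.

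The widest gap was that of Iglv3, a lambda segment. It was at 12.00 on WT PCN replicate 1 and at 6.12, 6.93 and 6.91 on the other WT PCN arrays, at 7.70, 6.76, 6.79 and 7.50 in WT CONT, at 6.89, 7.37, 6.79, 7.14 and 7.48 in Pxr-/- CONT, and at 6.59, 7.01, 6.62 and 5.77 in Pxr-/- PCN. The gap to the next array was 4.30 log2 units, and apart from this 1 mouse the groups overlapped. The first probe of Iglv1 was at 13.99 on the same array, within 0.1 of the lowest WT CONT array, so it did not stand out from all arrays there. Within its own group it was high, with the other WT PCN arrays at 12.57, 12.16 and 12.56.

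Other arrays held from 0 to 7 segments that stood out, and the farthest on each is given here. Igkv8-18 was at 9.82 on Pxr-/- CONT replicate 3 and at 8.27 on Pxr-/- PCN replicate 3, and at 6.48 or below on all other arrays, on many of which it was not well above background. Igkv7-33 was at 9.94 on WT PCN replicate 2 and at 7.14 or below elsewhere, and was well above background on only 8 arrays. Igkv8-27 was at 10.67 on WT CONT replicate 2 and at 8.75 or below elsewhere. These 3 are kappa segments, each at its highest on a different array.

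Of the heavy segments, Ighv1-84 was at 9.97 on WT CONT replicate 5 and at 8.08 or below elsewhere. Ighv4-1 was at 6.97 on WT CONT replicate 3 and at 5.94 or below elsewhere. It was well above background on all 4 WT CONT arrays, but on only 1 WT PCN, 2 Pxr-/- CONT and 0 Pxr-/- PCN arrays. Ighv5-2 was at 8.88 on Pxr-/- PCN replicate 3 and at 5.91 or below elsewhere, where it was mostly not well above background. Igkv3-9, a kappa segment, was at 9.55 on WT CONT replicate 4 and at 8.08 or below elsewhere. Ighv2-9-1 was highest on WT PCN replicate 1 (11.34), Ighv2-6 on WT CONT replicate 2 (9.73) and Igkv9-123 on WT CONT replicate 5 (9.60). Ighv2-6 was well above background on only 6 arrays. In these examples the highest value belonged to a single array, but in some the other WT arrays were high as well. Igkv9-123 was at 6.61 to 9.60 in WT CONT and at 4.81 to 9.17 in WT PCN, against 6.32 or below on all Pxr-/- arrays. It was well above background on 4 WT CONT and 2 WT PCN arrays, but on only 1 Pxr-/- CONT and 1 Pxr-/- PCN array. It thus met the limit for testing through WT arrays, and most of its Pxr-/- values were not well above background. Ighv2-9-1 was at 6.81 to 10.15 in WT CONT and at 7.60 or below on all Pxr-/- arrays.

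**Figure D3:**
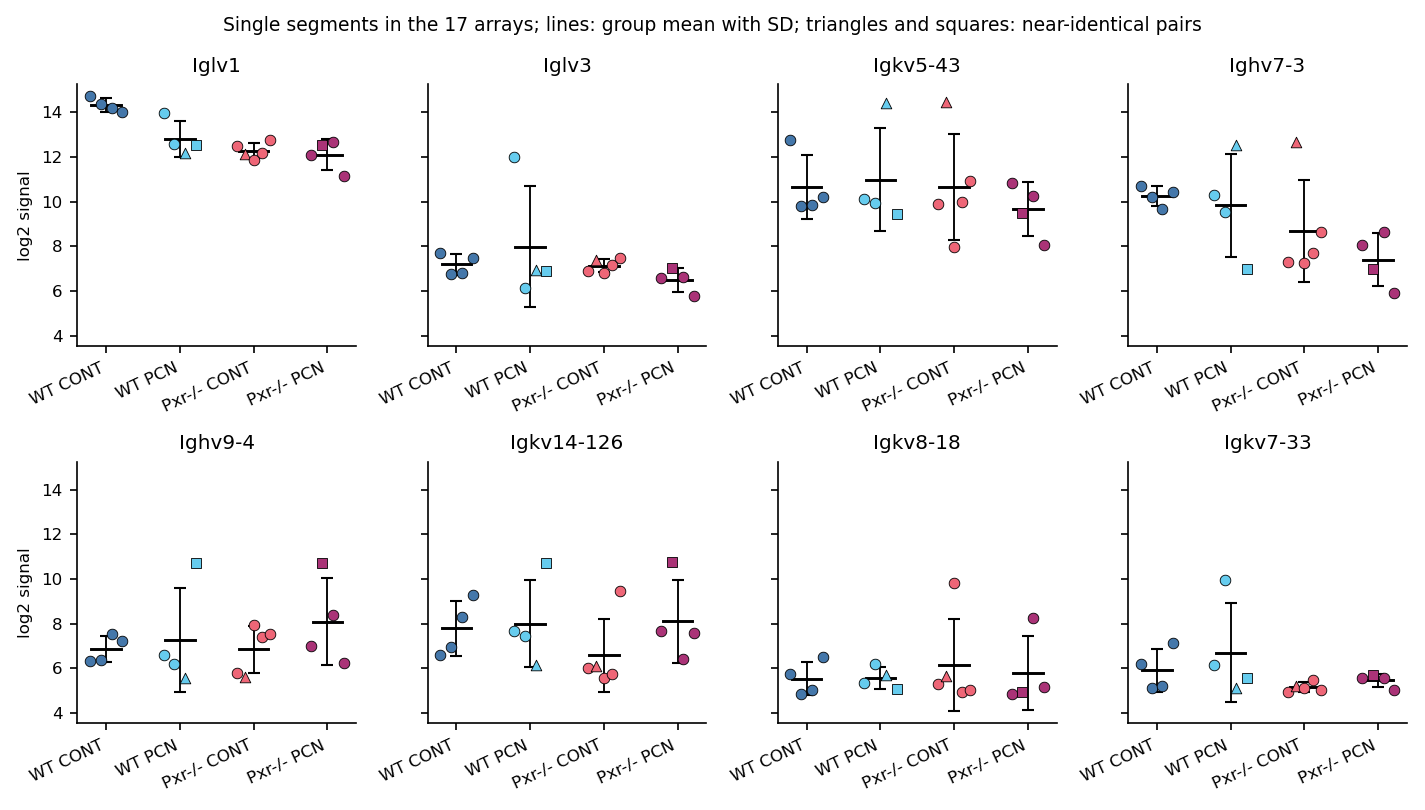
Log2 signal of 8 single segments on each of the 17 arrays by group, with the group mean and SD as lines; triangles mark the near-identical pair that holds WT PCN replicate 3 and squares the one that holds WT PCN replicate 4. Iglv1 (first probe) is 14.00 to 14.72 in WT CONT and 12.78 or below in Pxr-/- CONT. The other segments are highest on a single array or near-identical pair, and some are high on further arrays as well. Ighv7-3 is 9.68 to 10.71 in WT CONT, against 7.24 to 8.63 on the Pxr-/- CONT arrays other than replicate 2.

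Whether probes moved together depended on how alike they were, as a description over pairs of probes in the 15 profiles. For 12 pairs of probes alike in 54 to 60 bases the median r was 0.97, for 145 pairs alike in 45 to 53 bases it was 0.66, and for 9846 pairs alike in fewer it was 0.35. All these probes share the arrays and their general level, which alone makes r positive. Of the 204 probes, 22 had another segment probe alike in at least 54 bases. Apart from the Iglv1 probes, which read the same segment, their signals cannot be assigned to 1 segment with certainty. Not all of them moved together, since the lowest r among the 12 pairs was 0.52. Separate probes of the same segment mostly followed each other, with r = 0.997 for Iglv1 and 0.993 for Igkv3-10, but not always, as for Igkv6-13 (0.386 between a pair of its probes).

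In the mean over all segments, the groups were ordered WT CONT, WT PCN, Pxr-/- CONT and Pxr-/- PCN in all 3 loci, although the arrays of neighbouring groups overlapped in each. The mean log2 signal of the heavy segments was 8.90 ± 0.47 (SD, n = 4) in WT CONT, 8.56 ± 0.43 (n = 4) in WT PCN, 8.24 ± 0.29 (n = 5) in Pxr-/- CONT and 7.95 ± 0.46 (n = 4) in Pxr-/- PCN. Kappa segments were at 9.73 ± 0.49, 9.44 ± 0.29, 9.12 ± 0.31 and 8.81 ± 0.50 in the same order. Lambda segments were at 11.97 ± 0.32, 11.23 ± 1.42, 10.58 ± 0.32 and 10.25 ± 0.61, and here all WT CONT arrays (11.73 to 12.44) were above all Pxr-/- CONT arrays (10.16 to 11.06). For heavy and kappa segments these groups overlapped. In the lambda locus the place of WT PCN rested on its replicate 1 (13.35). The other WT PCN arrays were at 10.42 to 10.70, within the range of Pxr-/- CONT. Of the 3 lambda probes, 2 read Iglv1. Pxr-/- PCN replicate 4 was the lowest array in all 3 loci.

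**Figure D4:**
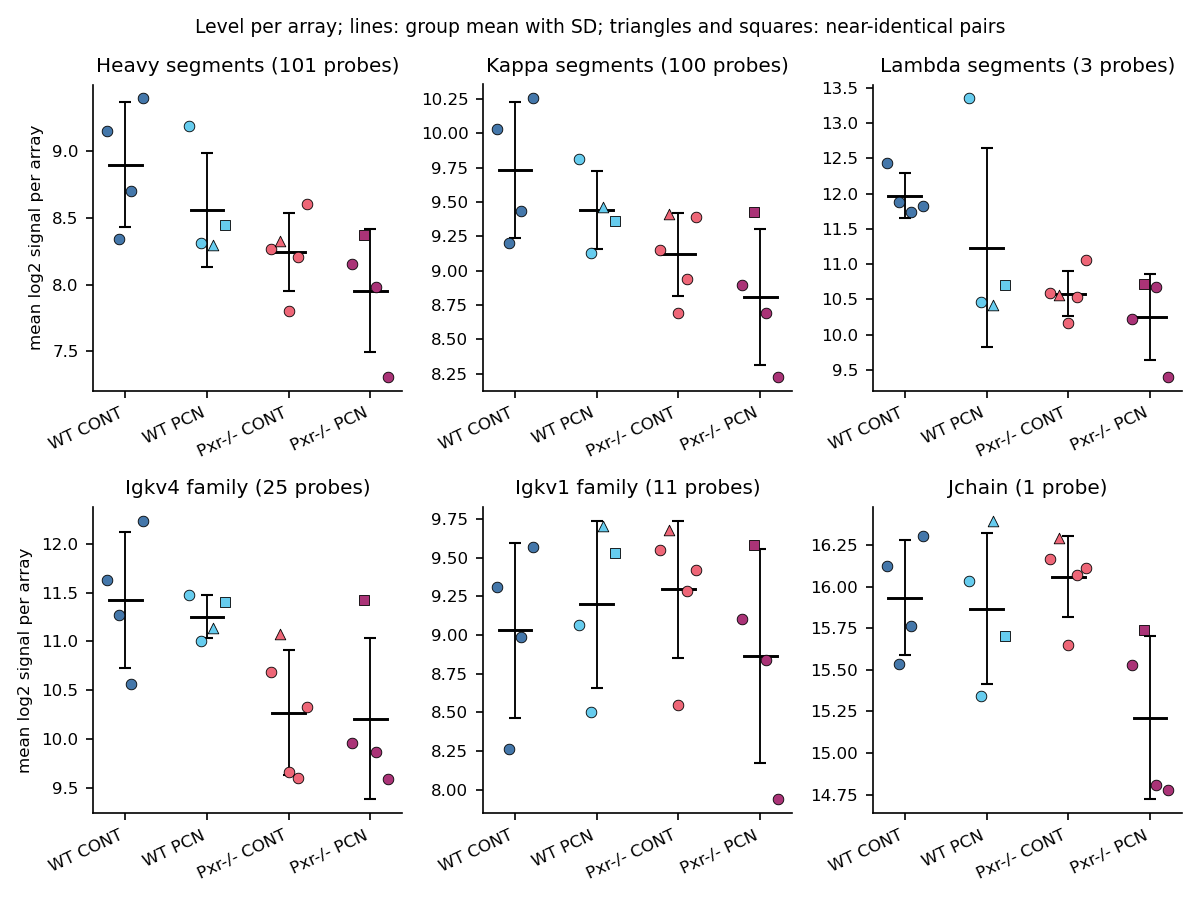
Mean log2 signal per array of the heavy, kappa and lambda segment probes, of the Igkv4 and Igkv1 families and of Jchain, by group, with group mean and SD as lines; triangles and squares mark the near-identical pairs as before. The lambda means of Pxr-/- CONT (10.16 to 11.06) lie below those of WT CONT (11.73 to 12.44), whereas the other 5 panels overlap between these groups.

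The comparison of Pxr-/- CONT with WT CONT asked how the genotype bears on the colon without PCN. More segments were lower in Pxr-/- CONT than higher, by 171 to 33, and the median log2 difference was -0.69, against 0.01 over all 38703 probes. No segment passed limma's test (an adjusted p no higher than 0.05 with a change of more than 1.5-fold), and none of the 38703 probes was (0%). At an unadjusted p under 0.05, 62 segments were lower (6.52% of all probes were) and 3 higher (6.17% of all probes were). The difference exceeded 2-fold for 64 segments (31.4%), against 0.977% of all probes. In 17 segments (8.33%) every Pxr-/- CONT array was below every WT CONT array, against 3.02% of all probes. The median was -0.71 without the 4 near-identical arrays, and -0.74 and -0.63 within the first and the second wash bath, the batches in which the arrays were washed.

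Iglv1 had the lowest p of all segments. Its first probe was at 14.72, 14.37, 14.19 and 14.00 in WT CONT and at 12.49, 12.12, 11.85, 12.17 and 12.78 in Pxr-/- CONT, so that the groups did not overlap. The log2 difference was -2.04 (SE 0.36) with an adjusted p of 0.183 by limma, and -2.08 (SE 0.37) for the second probe, also with an adjusted p of 0.183. For the first probe it was -2.53 within the first wash bath and -1.63 within the second. It passed the threshold in 3 alternative fits, with adjusted p of 0.0125 with array weights, 0.035 with only the groups compared and 0.0432 without WT PCN replicate 1. Iglc1, the constant region gene to which Iglv1 is commonly joined, showed a log2 difference of -1.84 (SE 0.40, adjusted p = 0.184), and Iglc3, another lambda constant region gene, one of -1.33 (SE 0.52, adjusted p = 0.336).

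Families of like segments were not all lower to the same degree. Family members share sequence and cannot be counted as independent, and the families described were picked after their values were seen. In Igkv4, all 25 probes were lower in Pxr-/- CONT, with a median log2 difference of -1.24. The mean of the family was 11.63, 11.27, 10.56 and 12.24 in WT CONT and 10.68, 11.08, 9.66, 9.60 and 10.33 in Pxr-/- CONT, so the groups overlapped by WT CONT replicate 4. Pxr-/- CONT replicate 2, the highest of its group, belongs to a near-identical pair. Igkv4-57, with the lowest p of the family, was at 12.23, 13.05, 11.02 and 13.09 in WT CONT and at 10.91, 11.34, 9.58, 10.35 and 10.91 in Pxr-/- CONT, a log2 difference of -1.75 (SE 0.43, adjusted p = 0.207).

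In the largest heavy family, Ighv1, 42 of 49 probes were lower, with a median of -0.69, and in Ighv5 all 8 (median -0.83). In Igkv1 only 5 of 11 were lower and the median was 0.47. Its mean was 9.31, 8.26, 8.99 and 9.57 in WT CONT and 9.55, 9.68, 8.55, 9.29 and 9.42 in Pxr-/- CONT, with wide overlap. Igkv6 (10 of 11 lower, median -0.28), Igkv3 (7 of 9, -0.32) and Igkv8 (7 of 9, -0.44) lay between.

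**Figure D5:**
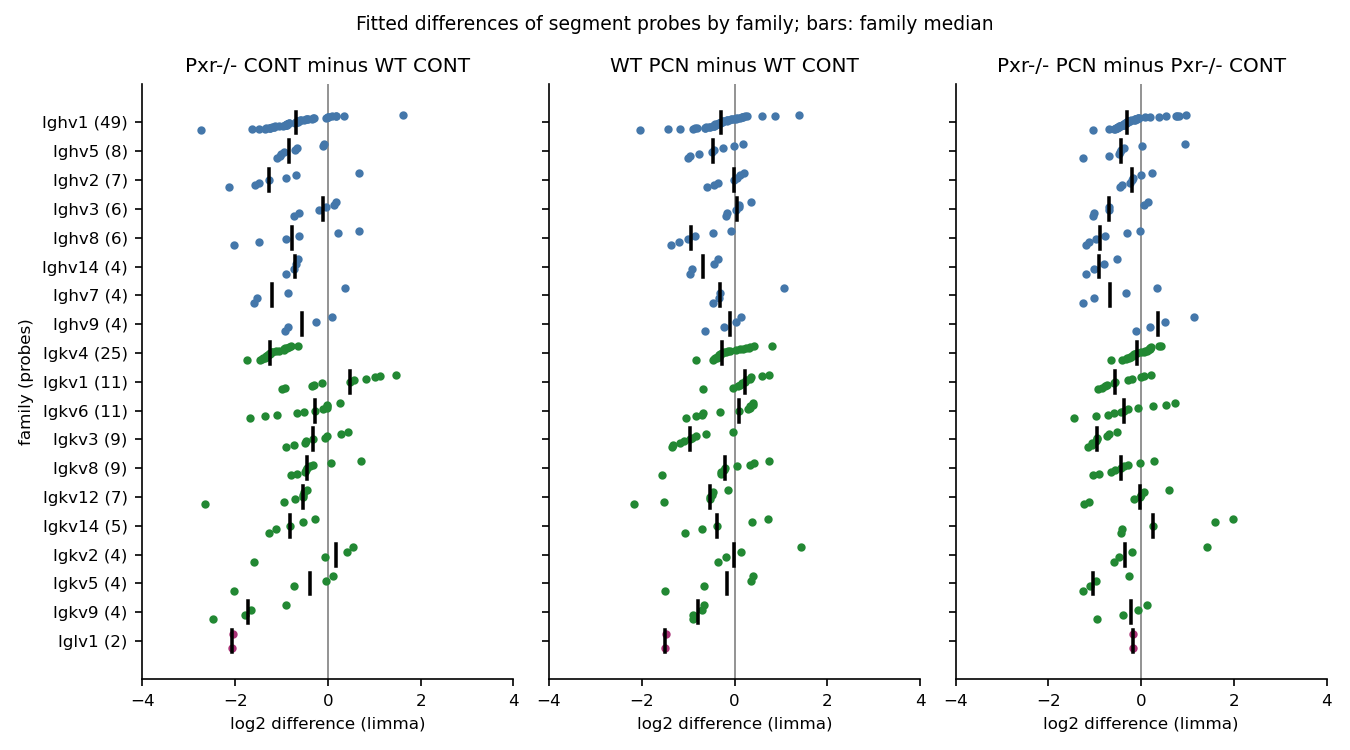
Log2 differences fitted by limma for the probes of each family of 4 or more probes and of Iglv1 (points; blue heavy, green kappa, purple lambda), with the family median as a bar, in the 3 comparisons. All 25 Igkv4 probes are left of 0 for Pxr-/- CONT minus WT CONT, and most Igkv1 probes are not; under PCN in either genotype the families scatter about or somewhat below 0.

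PCN in WT mice was compared to ask what the receptor's ligand does where the receptor is present. Of the 204 segments, 137 were lower and 67 higher in WT PCN than in WT CONT, with a median log2 difference of -0.29 against 0.00 over all probes. None was called by limma, nor was any other probe (0%). At an unadjusted p under 0.05, 21 segments differed (4.66% of all probes did), with 21 lower (2.17% of all probes were) and 0 higher (2.49% of all probes were). Iglv1 again had the lowest p, with WT PCN at 13.99, 12.57, 12.16 and 12.56 on its first probe. All 4 were below the 4 WT CONT arrays, replicate 1 by less than 0.1, while on the second probe replicate 1 (14.06) was above WT CONT replicate 5 (13.99). The log2 difference was -1.49 (SE 0.39, adjusted p = 0.956 by limma) and -1.50 for the second probe. It was -1.045 without the near-identical arrays. Within the first wash bath it was -2.12 and within the second, with 1 PCN array, -0.11. The median over all segments was -0.24 without the near-identical arrays, and -0.45 and 0.04 within the baths. In 6 segments (2.94%) every WT PCN array was below every WT CONT array, against 1.29% of all probes.

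PCN in Pxr-/- mice asked what remains of a response without the receptor. Of the 204 segments, 153 were lower and 51 higher in Pxr-/- PCN than in Pxr-/- CONT, with a median log2 difference of -0.29 against 0.01 over all probes. None was called by limma, against 2 of the 38703 probes (0.00517%). At an unadjusted p under 0.05, 14 segments differed (7.35% of all probes did), with 12 lower (3.95% of all probes were) and 2 higher (3.40% of all probes were). The median was -0.53 without the 4 near-identical arrays. Within the first wash bath it was 0.15, with 86 of 204 segments lower, and within the second -0.77, with 176 lower, so the direction differed between the baths.

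The lowest p here was that of Igkv3-4, a kappa segment. It was at 9.74, 9.82, 9.23, 11.03 and 10.35 in Pxr-/- CONT and at 8.68, 9.64, 8.79 and 8.52 in Pxr-/- PCN. Only Pxr-/- PCN replicate 2, of a near-identical pair, lay within the range of the controls. The log2 difference was -1.15 (SE 0.34, adjusted p = 0.449 by limma), and -0.69 on its second probe, with which it correlated at r = 0.808 over the 15 profiles. Ighv8-8, a heavy segment, was at 9.70, 8.99, 10.68, 8.88 and 9.15 in Pxr-/- CONT and at 8.05, 8.87, 8.04 and 8.25 in Pxr-/- PCN. The groups did not overlap, but Pxr-/- PCN replicate 2 was within 0.1 of the lowest control. The log2 difference was -1.18 (SE 0.38, adjusted p = 0.514). The Igkv3 family of 9 probes, picked after its values were seen, averaged 9.52 ± 0.60 (SD, n = 5) in Pxr-/- CONT and 8.63 ± 0.53 (n = 4) in Pxr-/- PCN, beside 9.78 ± 0.49 (n = 4) in WT CONT and 8.88 ± 0.51 (n = 4) in WT PCN.

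The interaction asked whether PCN acted differently in the 2 genotypes. The median over the segments was 0.02, with 105 positive and 99 negative, against 0.01 over all probes. Without the 4 near-identical arrays it was -0.25, with 77 positive, and with array weights 0.57, with 159 positive, so its sign was not stable. None was called by limma, nor was any other probe (0%). At an unadjusted p under 0.05, 6 segments were positive (2.43% of all probes were) and 1 negative (2.95% of all probes were).

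Ighv1-15, a heavy segment, had the lowest p. It was at 8.99, 9.07, 8.05 and 9.24 in WT CONT and at 8.77, 8.26, 7.25 and 8.83 in WT PCN. In Pxr-/- CONT it was at 6.96, 7.41, 6.91, 7.93 and 7.45, below every WT CONT array, and in Pxr-/- PCN at 7.38, 8.79, 8.65 and 7.65. The interaction was 1.39 (SE 0.53, adjusted p = 0.848 by limma). Its signal cannot be told apart from that of Ighv1-23, whose probe differs in 2 bases. Ighv1-42, also a heavy segment, was at 7.86, 10.57, 6.94 and 9.96 in WT CONT and at 7.40, 6.57, 6.01 and 7.31 in WT PCN. It was at 5.41, 6.08, 5.38, 6.37 and 7.21 in Pxr-/- CONT, where 2 of 5 arrays were not well above background, and at 6.09, 7.20, 6.59 and 6.09 in Pxr-/- PCN. WT CONT replicates 3 and 5 were thus above all other arrays, and the interaction was 2.43 (SE 0.93, adjusted p = 0.848).

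Genes of the B lineage gave the setting of these differences. In whole colon, fewer cells of a type and less RNA per cell cannot be told apart. The mean of 7 B cell markers ranged from 7.95 to 10.48 in WT CONT, from 6.96 to 9.59 in WT PCN, from 7.18 to 9.36 in Pxr-/- CONT and from 7.20 to 9.82 in Pxr-/- PCN. The 6 plasma cell markers averaged 11.94 to 12.60, 11.89 to 12.43, 11.97 to 12.45 and 11.29 to 12.09 in the same order. The mean of the B cell markers thus differed widely within each group, and that of the plasma cell markers less. Single plasma cell markers differed more than their mean. Mzb1 ran from 9.39 to 12.01 over the arrays, with group means of 11.45, 11.17, 10.99 and 10.35 in the same order. Jchain ran from 14.78 to 16.40, with group means of 15.93, 15.87, 16.06 and 15.21. The part of B cells or plasma cells in the segment differences was not tested.

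Of 12 constant region genes tested (Jchain among them), none was called by limma in any comparison. At an unadjusted p under 0.05, 2 were lower in Pxr-/- CONT than in WT CONT (median log2 difference of the list -0.02), 1 was lower under PCN in WT (-0.34) and 2 under PCN in Pxr-/- (-0.40). Of all probes tested, 6.52%, 2.17% and 3.95% were lower at that threshold in the same order. Igkc, the kappa constant region, showed a log2 difference of 0.02 between Pxr-/- CONT and WT CONT, where the kappa segments had a median of -0.69. Jchain, which joins immunoglobulin A into dimers, showed 0.11 in that comparison and -0.83 (SE 0.24, adjusted p = 0.448) under PCN in Pxr-/-. Igha, the constant region of immunoglobulin A, lay between 18.11 and 18.55 on all arrays, near the top of the scale, where quantile normalization gives all arrays the same highest values (up to 18.80). Ighm, that of immunoglobulin M, showed -0.59 (SE 0.50, adjusted p = 0.628) between the genotypes.

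Of 10 plasma cell genes tested, none was lower at an unadjusted p under 0.05 between the genotypes (median -0.13), where 6.52% of all probes were. Under PCN in Pxr-/-, 4 were lower (median -0.27), where 3.95% of all probes were. Of 11 genes of B cells and follicles, none passed that threshold in any comparison, with medians of -0.96 between the genotypes, -0.99 under PCN in WT and 0.14 under PCN in Pxr-/-. Adipocyte markers differed between Pxr-/- CONT and WT CONT, at 10.43 ± 0.99 (SD, n = 4) in WT CONT and 8.73 ± 0.94 (n = 5) in Pxr-/- CONT. All 3 were lower in Pxr-/- CONT at an unadjusted p under 0.05 (6.52% of all probes were). All 3 were also lower at that threshold in WT PCN (8.66 ± 1.02, n = 4) than in WT CONT (2.17% of all probes were). The median log2 difference of these markers under PCN in WT was -1.64 by limma. Their part in the segment differences was not tested.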

How the data were processed

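RNA of whole colon (17 samples) was labelled with Cy3 and hybridized to one-colour Agilent mouse arrays. The authors deposited the intensity of each spot as read by Agilent Feature Extraction 10.10.1.1 and a log2 table of their own values, for which the methods describe filtering, a correction for wash bath and CrossNorm normalization. From the deposited intensity, the median signal was taken to log2, spots that the scanner marked as outliers were left out, arrays were quantile-normalized and spots averaged per probe. Probes well above background on at least 4 arrays were fitted with limma 3.58.1 (R 4.3.3) on group and wash bath, with Benjamini-Hochberg adjustment over 38703 probes, and a probe was called where its adjusted p was no higher than 0.05 and its change exceeded 1.5-fold. The script was tested on simulated data.

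The segments named were those with the 2 lowest p in each comparison, the 4 largest and the smallest SD in each locus, the 4 farthest above and 2 farthest below in each near-identical pair, the one standing farthest out in each other array, and all lambda probes. Segments outside this rule (Igkv4-57, Ighv1-23, Ighv1-49 and those at the detection limit) and the families were chosen after their values were seen. Of the B lineage genes on the lists, 1 is not reported here. Members and gene lists were chosen with earlier results of these data known. The alternatives were other background corrections and scalings, the authors' table, other filters, terms for bath, slide or replicate number, array weights, 1 probe per segment, other groups in the fit, and arrays left out. Within-bath values and the array mean taken out were added after seeing the data. Probe sequences and mm9 coordinates are those of the scanner files.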

Additional observations from a re-analysis of the deposited data

Results flagged for a closer look

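Of 192 groups of 4 or 5 arrays examined, over 48 values, 19 held an array far from the others by Dixon's criterion, and chance alone flags about 1 in 20 groups. Many of these segments were named for their large spread or for standing out in 1 array, which itself raises the number, so the 2 cannot be compared. The explanations were not tested. Values are log2 signals.

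On arrays of the near-identical pairs, Ighv7-3 (12.66, others of the group 7.24 to 8.63) and Ighv7-2 (10.998, others 5.85 to 7.23) stood apart on Pxr-/- CONT replicate 2. Igkv5-43 stood apart on WT PCN replicate 3 (14.43, others 9.46 to 10.102), and Ighv1-19 on Pxr-/- PCN replicate 2 (11.32, others 7.94 to 8.21).

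In WT CONT, replicate 2 was apart for Igkv5-43 (12.79, others 9.83 to 10.22) and Igkv5-45 (12.31, others 9.30 to 9.76), replicate 3 for Igkv12-89 (9.25, others 7.56 to 7.83) and replicate 4, as the lowest, for Igkv10-94 (9.14, others 10.13 to 10.30). WT PCN replicate 1 was apart for Iglv3 (12.00, others 6.12 to 6.93), Igkv8-27 (8.23, others 6.80 to 6.90), the mean of the heavy segments (9.19, others 8.30 to 8.44) and that of the lambda segments (13.35, others 10.42 to 10.70). Igha was the lowest on WT CONT replicate 4 (18.37) and WT PCN replicate 2 (18.37), with the others of each group at 18.55, near the top value of the scale (18.80).

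In Pxr-/- CONT, Igkv8-18 stood apart on replicate 3 (9.82, others 4.93 to 5.64) and Igkv14-126 on replicate 5 (9.47, others 5.58 to 6.08). In Pxr-/- PCN, Ighv2-6 (6.51, others 4.92 to 5.17) and Ighv1-24 (5.65, others 5.12 to 5.16) stood apart on replicate 1 and Igkv8-18 on replicate 3 (8.27, others 4.86 to 5.14).

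The change of Ighv1-15 under PCN was -0.56 in WT and 0.78 in Pxr-/-, a difference of 1.35 in the group means. By limma's interaction term its unadjusted p was 0.0196 and its adjusted p 0.848.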

How the results depend on the processing

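The number of segments called stayed at 0 in all comparisons and settings except 4. For Pxr-/- CONT against WT CONT it was 50 with array weights (21 heavy, 27 kappa and 2 lambda, all lower; 521 of all 38703 probes were called), 1 with only the groups compared (Iglv1; 8 of all probes) and 0 to 2 with 1 array left out, the 2 being both Iglv1 probes without WT PCN replicate 1, where no other probe was called. For PCN in WT it was 1 without the 2 near-identical arrays labelled WT PCN (Ighv1-49, a dim probe, 2.94 higher, adjusted p = 0.026 by limma; 39 of all probes). The medians for the genotype and for PCN in either genotype stayed below 0 under every alternative fit, though not within each wash bath. With array weights Iglc1 was also called lower in Pxr-/- CONT (adjusted p = 0.014 by limma). With 1 array left out, the median over the segments ran from -0.89 (without WT CONT replicate 3) to -0.57 (without WT CONT replicate 5) for the genotype. For PCN in WT this median ran from -0.49 (without WT PCN replicate 1) to -0.10 (without WT CONT replicate 2). For PCN in Pxr-/- it ran from -0.53 (without Pxr-/- PCN replicate 2) to -0.03 (without Pxr-/- PCN replicate 4). With array weights the medians over the segments were -0.95, -0.53 and -0.02 in that order. The median for the interaction changed sign among the fits, from -0.25 without the 4 near-identical arrays to 0.57 with array weights. The median spread ran from 0.83 to 0.92 with 1 array left out, and from 0.80 (normexp) to 1.03 (scanner-corrected signal) over the other settings.

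With the scanner-corrected signal, the SD between the near-identical arrays was 0.36 and 0.29 and the array means ranged over 2.51, and in the authors' table the SD of the second pair was 0.42. With only probes above background on all 17 arrays, 17 segments stood out in 1 array. The causes were not tested. With replicate number as a block, 0 segments were called in each comparison, with medians of -0.29 and -0.20 for PCN in WT and Pxr-/- mice, -0.73 for the genotype and 0.18 for the interaction. Of 22 pairs of arrays of different groups that share a number, 11 correlated over 0.1 (median 0.10, range -0.33 to 0.49), against 30 of 86 other pairs (median -0.05). Not every pair was over 0.1 and the labels tie the number to no litter or batch, so the number was not treated as a pairing.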
